A study of Mus musculus with 4 samples.

Results

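The 32 genes described here take part in the uptake, activation and mitochondrial oxidation of fatty acids. They were chosen by symbol as a pathway and not by a cut on their counts, though with earlier results of these data known. All 32 were among the 33954 genes of the deposited matrices. They fall into 5 for uptake and activation, 5 for the carnitine shuttle, 12 for beta-oxidation, 3 for electron transfer, and 7 for storage, overflow and control. The nuclei came from adult mouse hearts that were wild type (WT) or carried Q150X, a Vegfa allele made with CRISPR/Cas9 to model a human stop-gained variant of the growth factor VEGF-A. Hearts of both genotypes were taken at homeostasis or 3 days after myocardial infarction (3dpMI), with 1 library of single nuclei in each of the 4 groups. The mutant is marked HO in the sources and its allele is written Q150X/Q150, so the number of edited copies is not clear from them. Exact age, strain and the number of hearts in a library are not stated in the labels. All 4 groups are nuclei of whole hearts with no sort for a cell type, and RNA was counted from the 5' end of transcripts.

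Heart muscle draws most of its energy from fatty acids. Lipoprotein lipase frees them from circulating triglyceride at the capillary wall, Cd36 and the transporter Slc27a1 bring them across endothelium and into the cardiomyocyte, Fabp3 carries them in the cytosol, and Acsl1 joins them to coenzyme A. The carnitine shuttle then moves the acyl chains into mitochondria, where beta-oxidation shortens them step by step and the electron transfer flavoprotein passes the electrons to the respiratory chain. Cardiomyocytes are known to lower this programme after injury and to use more glucose.

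The homeostasis libraries held 4390 (WT) and 6544 (Q150X) nuclei and the 3dpMI libraries 9157 (WT) and 8125 (Q150X). They differed in depth, with 5875965, 9283645, 30413471 and 32657625 unique molecular identifiers (UMIs) in that order. After filtering, 26170 nuclei remained in 27 clusters, of which 1581, 834, 1148 and 392 nuclei were cardiomyocyte-like, with all 15 cardiomyocyte markers counted in every library. Vascular endothelial-like nuclei numbered 487, 476, 2253 and 1179, with all 15 endothelial markers counted, and a further cluster of 60, 254, 337 and 266 nuclei that scored highest for endothelium stayed unnamed. Vegfa itself stood at 718, 922, 596 and 694 CPM in cardiomyocyte-like nuclei in the order above, and since a count per gene does not show a stop codon, it does not check the genotype labels. Pairs of libraries shared 39 to 117 barcodes, where 39 to 100.9 were expected from their sizes. Levels are CPM, the UMIs of a gene summed over the nuclei of a class and scaled to the total of that class, so a level is the share of a gene in that class and is not set against the level of another gene. With 1 library in each group no test was possible, and the 95% intervals in brackets cover counting error only, not the spread between hearts.

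Promoter windows for 27 of the 32 genes were matched in RefSeq on GRCm38.p6, an earlier build than that of the counts. The 4 stretches below, each taken from the bases before a transcription start, are shown because results turn on these genes. Cd36 had the most UMIs of all members, Cpt1a had the highest and Ucp3 one of the lowest ratios after infarction in Q150X, and Hadha and Hadhb encode the 2 subunits of one enzyme from a shared promoter. Capitals mark the letters AGGTCA on either strand, the half-site bound by nuclear receptors such as the PPARs and the estrogen-related receptors.
Cd36 (chr5:17835897-17836146, minus strand): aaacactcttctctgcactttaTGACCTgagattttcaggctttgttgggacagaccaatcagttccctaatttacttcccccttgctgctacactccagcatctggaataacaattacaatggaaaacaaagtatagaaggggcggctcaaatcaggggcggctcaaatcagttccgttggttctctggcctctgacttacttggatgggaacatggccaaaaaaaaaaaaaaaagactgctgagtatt
Cpt1a (chr19:3323051-3323300, plus strand): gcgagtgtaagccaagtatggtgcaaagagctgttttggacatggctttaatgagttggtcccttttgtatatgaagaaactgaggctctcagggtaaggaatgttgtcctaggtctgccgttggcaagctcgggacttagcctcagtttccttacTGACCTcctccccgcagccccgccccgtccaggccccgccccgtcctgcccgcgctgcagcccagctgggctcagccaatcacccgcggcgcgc
Ucp3 (chr7:100472741-100472990, plus strand): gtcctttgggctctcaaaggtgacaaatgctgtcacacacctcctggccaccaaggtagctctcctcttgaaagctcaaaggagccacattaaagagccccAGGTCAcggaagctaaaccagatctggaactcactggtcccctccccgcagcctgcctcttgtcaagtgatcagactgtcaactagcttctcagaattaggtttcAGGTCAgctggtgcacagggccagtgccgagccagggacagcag
Hadha and Hadhb (chr5:30155003-30155230, minus strand): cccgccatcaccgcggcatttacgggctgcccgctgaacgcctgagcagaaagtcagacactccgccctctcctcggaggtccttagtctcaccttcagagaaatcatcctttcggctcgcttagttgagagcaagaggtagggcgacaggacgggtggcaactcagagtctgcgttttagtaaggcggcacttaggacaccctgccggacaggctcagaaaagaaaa
The Cd36 half-site starts 228 bases before the transcription start, that of Cpt1a 94 bases before it, and those of Ucp3 149 and 44 bases before it. The Hadha and Hadhb stretch is 228 bases long, lies before the starts of both genes, which are 273 bases apart on opposite strands, and holds no AGGTCA. Over windows of 250 bases before to 50 bases after the start, AGGTCA was found in 8 of the 27 member genes, namely Acacb, Acadm, Acadvl, Cd36, Cpt1a, Echs1, Plin5 and Ucp3, and in 18.1% of all 27025 genes with such a window. A direct repeat of AGGTCA with 1 free base between the copies was in none of the 27 and in 0.0481% of all genes, and the extended half-site TCAAGGTCA was in none and in 0.466%. Both strands were searched, and any TCAAGGTCA or direct repeat also counts as an AGGTCA.

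In cardiomyocyte-like nuclei the genotype difference ran in opposite directions at the 2 times. At homeostasis 29 of the 32 genes stood higher in Q150X than in WT and 3 lower, where 68.7% of all 10354 genes measured (at least 20 UMIs over both libraries) were higher. Their median log2 ratio of Q150X over WT was 0.43, against 0.18 over all genes. At 3dpMI 30 of the 32 stood lower in Q150X and 2 higher, where 44.7% of all 12708 genes were lower, and the median log2 ratio was -0.46 against 0.06 over all genes. Most single differences were under 1.5-fold. At homeostasis 8 of the 32 were past 1.5-fold higher, beside 16.8% of all genes, and at 3dpMI 6 were past 1.5-fold lower, beside 11.1%. The interval of the ratio lay above 1 for 19 of the 32 at homeostasis, beside 19% of all genes, and below 1 for 21 at 3dpMI, beside 13.6%. Of the 30 with at least 50 UMIs in both comparisons 12 met both conditions, beside 5.37% of all 7408 such genes.

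**Figure D1:**
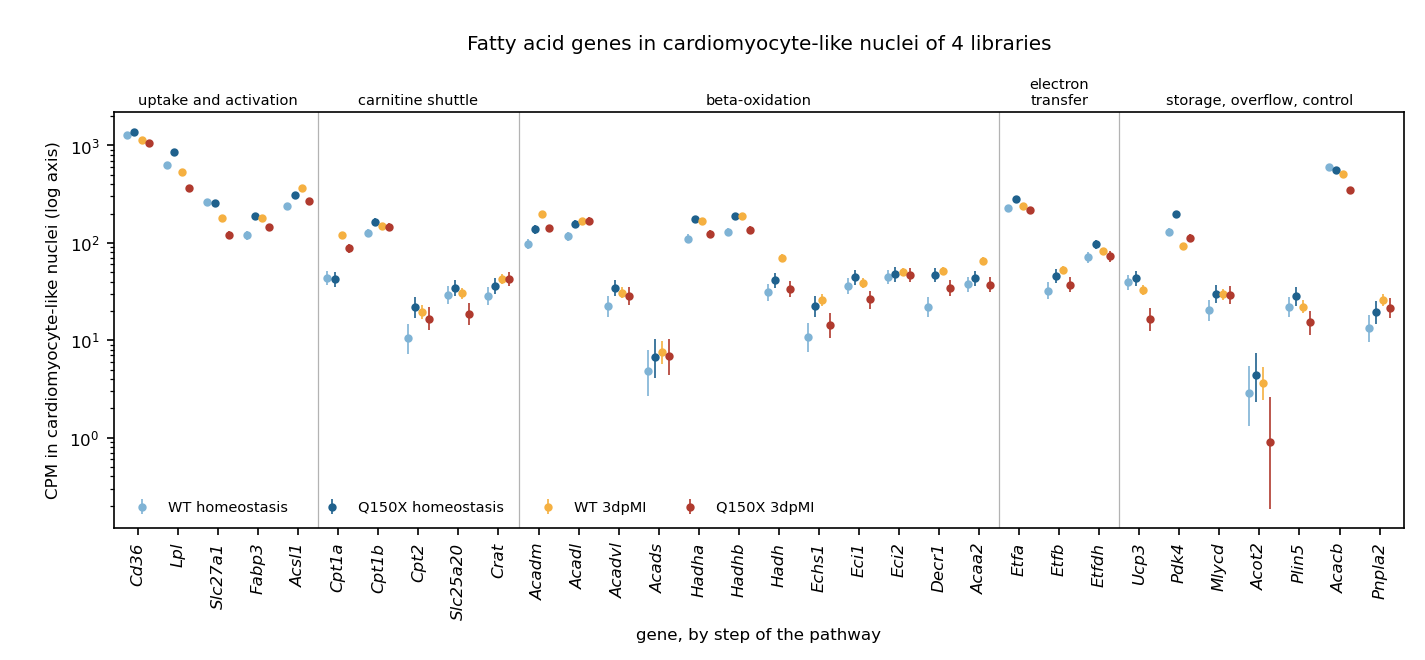
Level of each of the 32 genes in cardiomyocyte-like nuclei, in CPM on a log axis, with 1 point for each library and bars for the exact Poisson 95% interval. The dark blue point lies above the light blue one for 29 genes and the red point below the orange one for 30, as for Lpl at 633, 864, 533 and 363 CPM.

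Among the uptake genes, Lpl, the lipase that frees fatty acids from triglyceride, stood at 633 CPM (605 to 661) for WT and 864 (831 to 898) for Q150X without infarction, then 533 (517 to 549.7) and 363 (343 to 384) with it. It was thus highest in Q150X at homeostasis and lowest in Q150X at 3dpMI, with ratios of Q150X over WT of 1.37 (1.29 to 1.45) and 0.681 (0.638 to 0.726), and the 4 intervals did not overlap. Acsl1, the enzyme that activates long chains with coenzyme A, stood at 238 CPM (221 to 256) for WT and 308 (289 to 329) for Q150X without infarction, then 369 (356 to 383) and 271 (254 to 289) with it. Its ratios were 1.29 (1.17 to 1.43) and 0.734 (0.681 to 0.792), and its highest value was in WT 3dpMI. Fabp3, the cytosolic carrier of heart and muscle, stood at 120.2 CPM (108 to 133) for WT and 188 (173 to 205) for Q150X without infarction, then 181 (171 to 190.4) and 145 (132 to 158) with it, with ratios of 1.57 (1.37 to 1.79) and 0.80 (0.72 to 0.888). Fabp3 overlaps Zcchc17 on the other strand, as Crat does Dolpp1, Acadvl Dvl2, Hadha Garem2 and Echs1 Paox, and as no source states that strand was used in counting, reads of such pairs may not be told apart. Cd36, the main fatty acid receptor of these cells, stood at 1279 CPM (1239.8 to 1319) for WT and 1363 (1321 to 1406) for Q150X without infarction, then 1140.5 (1117 to 1165) and 1062 (1027 to 1097) with it, with ratios close to 1 of 1.07 (1.02 to 1.11) and 0.931 (0.895 to 0.968). Slc27a1, a transporter that couples uptake to activation, was alike in the homeostasis libraries, at 263 (246 to 282) and 258 (240.4 to 277), and lower in Q150X at 3dpMI, at 121 (109.8 to 134) against 179 (169.8 to 189).

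The 5 carnitine shuttle genes had median log2 ratios of 0.35 at homeostasis and -0.23 at 3dpMI. Cpt1b, the muscle form of the enzyme that sets the rate of entry, was higher in Q150X at homeostasis, at 165 (150.3 to 179.7) CPM against 126 (114 to 139), and the 3dpMI values of 150.2 (142 to 159) for WT and 146 (134 to 159.9) for Q150X overlapped. Cpt1a, the form that dominates in liver and in the fetal heart, was alike in the homeostasis libraries, at 43.8 (36.8 to 51.8) and 42.2 (35.2 to 50.3). At 3dpMI it stood at 121 (114 to 129) for WT and 87.8 (78.1 to 98.5) for Q150X, a ratio of 0.724 (0.633 to 0.827). Cpt2, which rebuilds the acyl-CoA inside, rested on 33 and 66 UMIs at homeostasis and had a ratio of 2.1 (1.36 to 3.29). For Slc25a20, the carrier across the inner membrane, Q150X over WT was 1.19 (0.886 to 1.59) without infarction and 0.615 (0.458 to 0.815) with it, so its interval held 1 at homeostasis and lay below it at 3dpMI. Crat, the acetyl transferase that buffers acetyl-CoA, had 1.27 (0.952 to 1.7) and 1.0 (0.818 to 1.22), both with intervals that hold 1.

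All 12 beta-oxidation genes were higher in Q150X at homeostasis and all 12 were lower at 3dpMI, with intervals clear of 1 for 8 and 8 of them and medians of 0.49 and -0.49. Hadha and Hadhb, the subunits of the trifunctional protein whose shared promoter is shown above, had ratios with overlapping intervals at both times. Hadha stood at 109.9 CPM (98.6 to 122) for WT and 175 (160.2 to 191) for Q150X without infarction, then 166 (157 to 175) and 123 (111 to 135) with it. Its ratios were 1.59 (1.39 to 1.83) and 0.74 (0.66 to 0.827), and those of Hadhb were 1.44 (1.27 to 1.65) and 0.71 (0.637 to 0.789). Hadh, the dehydrogenase for shorter chains, had the lowest ratio at 3dpMI among genes with at least 50 UMIs. It stood at 31.0 CPM (25.1 to 37.8) for WT and 41.5 (34.6 to 49.5) for Q150X without infarction, then 69.9 (64.2 to 76.1) and 33.8 (27.8 to 40.6) with it, so WT 3dpMI was the high library and the other 3 lay below it. The ratio at 3dpMI was 0.483 (0.39 to 0.592).

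Decr1, the reductase needed for unsaturated chains, had the largest ratio at homeostasis, at 47.2 CPM in Q150X against 22.1 in WT, or 2.14 (1.6 to 2.9). At 3dpMI it stood at 34.7 against 51.4, or 0.673 (0.543 to 0.83). Echs1, the hydratase of short chains, went the same way from 2.07 (1.35 to 3.22) to 0.553 (0.395 to 0.761), on 34 to 199 UMIs a library. Acadm, the medium-chain dehydrogenase, stood at 98.1 CPM (87.5 to 109.7) for WT and 138 (125 to 152) for Q150X without infarction, then 197 (187 to 207) and 141 (128 to 154) with it. Its ratios were 1.4 (1.21 to 1.63) and 0.715 (0.644 to 0.794). Acaa2, the thiolase of the last step, was 0.576 (0.469 to 0.702) at 3dpMI, while its homeostasis ratio of 1.15 (0.886 to 1.48) held 1. Acadl and Acadvl, the dehydrogenases for long and very long chains, were higher in Q150X at homeostasis, at 1.33 (1.16 to 1.53) and 1.54 (1.13 to 2.12), and at 3dpMI their ratios of 0.989 (0.894 to 1.09) and 0.929 (0.725 to 1.18) held 1. The isomerase Eci1 was lower in Q150X at 3dpMI, at 0.679 (0.529 to 0.865), and its relative Eci2 had 0.93 (0.768 to 1.12). Acads, the short-chain dehydrogenase, had 15 to 58 UMIs a library, and neither ratio was clear of 1.

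The 3 electron transfer genes were also higher in Q150X at homeostasis and lower at 3dpMI. Etfa, the alpha subunit of the flavoprotein, stood at 230.1 CPM (214 to 248) for WT and 282 (263 to 301) for Q150X without infarction, then 240.3 (229 to 252) and 217 (201 to 233) with it, and the ratios were 1.22 (1.11 to 1.35) and 0.902 (0.827 to 0.984). Etfb, the beta subunit, had 1.42 (1.09 to 1.86) and 0.704 (0.572 to 0.863). Etfdh, which hands the electrons to ubiquinone, had 1.35 (1.13 to 1.62) and 0.89 (0.765 to 1.03), the last holding 1.

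Among genes of storage, overflow and control, Pdk4 alone was higher in Q150X at 3dpMI. Pdk4, the kinase that shuts pyruvate out of oxidation and so favours fatty acids, stood at 129.8 CPM (117 to 143) for WT and 197 (181 to 213) for Q150X without infarction, then 92.7 (86.1 to 99.8) and 112 (101 to 124) with it. It was higher in Q150X at both times, with ratios of 1.52 (1.33 to 1.72) and 1.21 (1.06 to 1.37). Acacb, the carboxylase whose product malonyl-CoA holds back the carnitine shuttle, was the one gene with an interval below 1 at homeostasis, at 0.932 (0.872 to 0.996), and it was 0.672 (0.629 to 0.718) at 3dpMI. Ucp3, a mitochondrial carrier of muscle linked to fatty acid overflow, was alike at homeostasis, at 1.09 (0.846 to 1.41), and stood at 16.4 against 33.0 CPM at 3dpMI, or 0.499 (0.365 to 0.67). Mlycd, which removes malonyl-CoA, had 1.46 (1.05 to 2.04) and 0.981 (0.767 to 1.25). Plin5, the coat protein that ties lipid droplets to mitochondria, was 0.688 (0.493 to 0.946) at 3dpMI, and Pnpla2, the lipase that opens the droplet store, was 0.834 (0.628 to 1.1), while their homeostasis ratios of 1.29 (0.929 to 1.8) and 1.45 (0.957 to 2.21) held 1. Acot2, a mitochondrial thioesterase, had 3 to 28 UMIs a library and has a near-identical neighbour in Acot1, so its values are uncertain and are not read further.

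**Figure D2:**
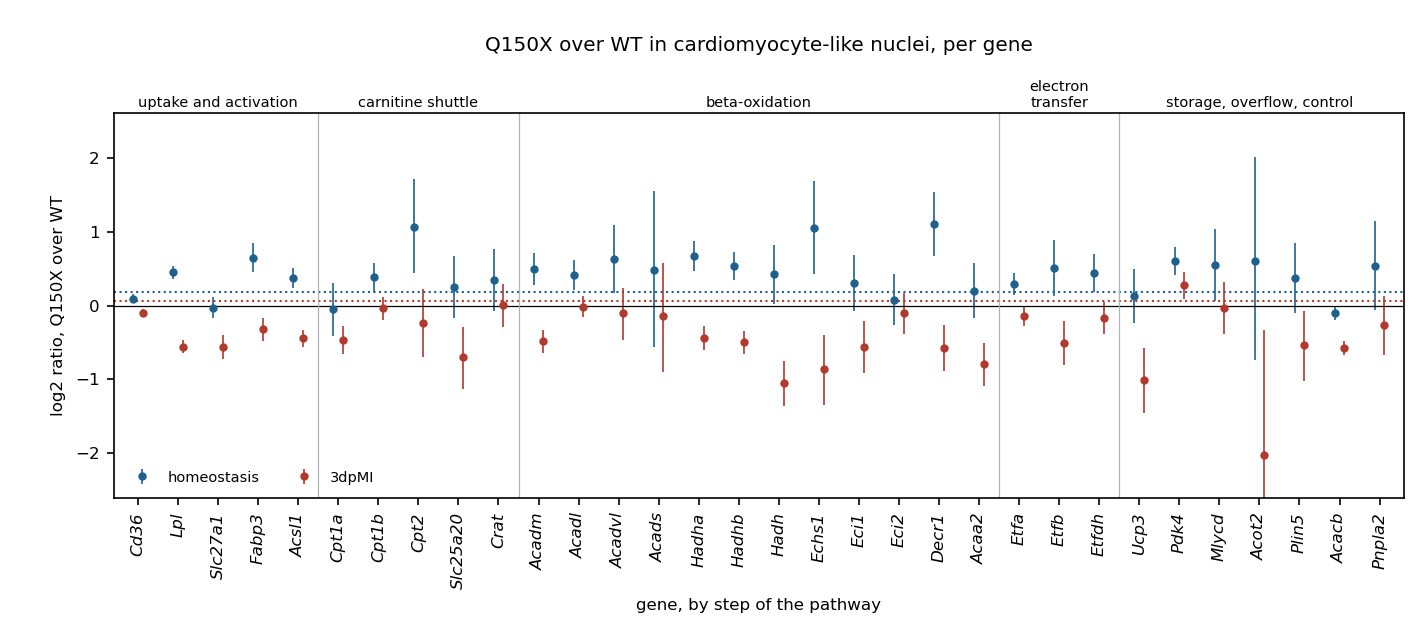
log2 ratio of Q150X over WT in cardiomyocyte-like nuclei for each gene, at homeostasis (blue) and 3dpMI (red), with 95% counting intervals and dotted lines at the median of all genes measured. Blue points lie mostly above 0 (29 of 32) and red points mostly below (30 of 32), and the lower bound of Acot2 at 3dpMI runs off the axis.

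Other values moved with the homeostasis difference. The median depth of cardiomyocyte-like nuclei was 1516 UMIs in WT and 3031 in Q150X, and the share of mitochondrial UMIs was 0.473% and 0.590%. The 15 cardiomyocyte markers summed to 85297 and 77736 CPM there, and the 15 endothelial markers to 180.3 and 309, with none at 0 in either library. Shorter genes had higher ratios over all genes, with medians of 0.31, 0.20 and 0.075 from the shortest to the longest of 3 classes of length, and 16 members lay in the shortest. The members' medians in the same classes were 0.52, 0.44 and 0.092. After subtracting the median of genes of like length, the members' median was 0.20. The part of depth, mitochondrial share and free RNA in these ratios was not tested.

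Genes beside the members show how far the difference extended. Of 78 further genes of the pathway, 71 were measured at homeostasis, with 53 higher and 18 lower and a median of 0.21, close to that of all genes. The nuclear-coded respiratory chain had a larger median than the members, 0.67, with 37 of 38 genes higher, and glycolysis had 0.39. Scp2, a peroxisomal thiolase and lipid carrier, was 2.02 (1.43 to 2.88), and Gpam, the first enzyme of triglyceride synthesis, was 1.62 (1.34 to 1.97). Lower ones included Rxra, the partner receptor of the PPARs, at 0.524 (0.405 to 0.675), and Ppard at 0.693 (0.60 to 0.80). At 3dpMI the further pathway genes had a median of -0.21, with 48 of 75 lower, while the respiratory chain had -0.074 and glycolysis 0.35, with 18 of 24 higher. Among the further pathway genes, other mitochondrial oxidation genes were at -0.47 and regulators of the pathway at -0.39. Ppargc1a, the coactivator that drives mitochondrial gene programmes, stood at 479.7 CPM in Q150X against 908 in WT, a ratio of 0.528 (0.50 to 0.558). Esrrb, an estrogen-related receptor, was 0.50 (0.446 to 0.559). Acot9, a mitochondrial thioesterase, went the other way at 2.14 (1.67 to 2.75), as did Fabp5, a fatty acid binding protein of many cell types, at 2.63 (1.52 to 4.59).

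Infarction within each genotype was compared with the same libraries, so the next values are the same counts read along the other axis. In WT cardiomyocyte-like nuclei 26 of 32 genes stood higher at 3dpMI than at homeostasis, beside 76% of all genes, with a median log2 ratio of 0.54 against 0.41 over all genes. Over all genes the median was 0.70 in the shortest and 0.19 in the longest of 3 classes of length, and once the median of genes of like length was subtracted the members' median was -0.076. In Q150X 25 of the 31 measured stood lower, beside 36.6% of all genes, with a median of -0.38 against 0.23. Of 30 members with at least 50 UMIs in both comparisons, 6 had an interval above 1 in WT and below 1 in Q150X, beside 2.7% of all 8322 such genes. The 3dpMI libraries were also the deeper ones, with medians of 6147 and 7760 UMIs per cardiomyocyte-like nucleus.

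Cpt1a had the highest ratio of 3dpMI over homeostasis of all members in both genotypes, with ratios of 2.77 (2.31 to 3.34) for WT and 2.08 (1.68 to 2.58) for Q150X. In WT the next, ranked by the bound nearest to 1, were Hadh at 2.26 (1.81 to 2.83), Decr1 at 2.33 (1.8 to 3.06) and Acadm at 2.0 (1.77 to 2.27). The same 3 genes in Q150X had 0.812 (0.624 to 1.06), 0.733 (0.569 to 0.944) and 1.02 (0.893 to 1.17). In Q150X the members after Cpt1a were Acadl at 1.08 (0.949 to 1.22) and Crat at 1.18 (0.913 to 1.53), both holding 1. Slc27a1, Pdk4, Lpl and Acacb were the lowest by that rank in WT, and Lpl, Ucp3, Slc27a1 and Pdk4 in Q150X, while other genes of the same steps, such as Acsl1 at 1.55 (1.43 to 1.68) and Pnpla2 at 1.92 (1.37 to 2.75), were higher after infarction in WT. Slc27a1 was 0.68 (0.623 to 0.742) for WT and 0.469 (0.415 to 0.53) for Q150X, and Pdk4 was 0.715 (0.632 to 0.809) and 0.57 (0.499 to 0.649). Lpl was 0.842 (0.798 to 0.889) and 0.42 (0.392 to 0.45), and Ucp3 was 0.831 (0.668 to 1.04), holding 1 in WT, and 0.38 (0.272 to 0.525). Acacb was 0.846 (0.80 to 0.894) and 0.61 (0.566 to 0.658). By step, the median in WT was -0.17 for uptake and activation, 0.58 for the carnitine shuttle, 0.62 for beta-oxidation, 0.21 for electron transfer and 0.0058 for storage and control. In Q150X the same steps stood at -0.38, -0.17, -0.28, -0.38 and -0.76. Ppargc1a was far lower at 3dpMI in both, at 0.306 (0.297 to 0.316) and 0.139 (0.132 to 0.147), and Ppara, the main receptor for fatty acids in the heart, was 0.463 (0.437 to 0.491) and 0.347 (0.318 to 0.378).

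Cardiomyocyte-like nuclei fell into 3 clusters of the joint clustering. Each was then labelled by the summed level of 12 genes of cardiomyocyte stress such as Ankrd1, Xirp2, Nppb and Acta1. One cluster is called stress-high here, since its stress genes summed to 9162 CPM against 4274 over all cardiomyocyte-like nuclei, and the other 2, at 1624 and 1930 CPM, are called stress-low. The members were left out of the clustering. Stress-high nuclei made up 14 of 1581 nuclei in WT and 12 of 834 in Q150X at homeostasis. At 3dpMI they were 360 of 1148 in WT, or 31.4% (28.7% to 34.1%, exact binomial), and 271 of 392 in Q150X, or 69.1% (64.3% to 73.7%). The split was made from the data, so what follows describes these nuclei. These shares depended on the filters and clustering. With at most 5% mitochondrial UMIs they were 21.2% in WT and 34.9% in Q150X. More nuclei were named cardiomyocyte-like in that setting, with 300 stress-high and 1113 stress-low in WT and 257 and 480 in Q150X. With genes left unscaled before clustering, a setting chosen after seeing the data, the share was 92.5% in WT, and Q150X had 387 stress-high and 8 stress-low nuclei.

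In stress-high nuclei most members were lower than in the stress-low nuclei of the same library. In WT 3dpMI 30 of 32 were lower, beside 52.5% of all genes, with a median log2 ratio of -0.45 against -0.028, and 12 were past 1.5-fold lower, beside 15.1%. In Q150X 3dpMI all 31 measured were lower, beside 46.7%, with a median of -0.72 against 0.046, and 19 were past 1.5-fold lower, beside 16.8%. The respiratory chain was lower by less, at -0.29 and -0.34, and glycolysis was near 0, at 0.027 and 0.12.

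By the bound nearest to 1, the lowest ratios in WT were those of Ucp3, Slc27a1, Eci1 and Hadh, and in Q150X those of Lpl, Slc27a1, Acacb and Ucp3. Lpl stood at 654 (631 to 678) CPM in stress-low and 363 (342 to 385) in stress-high nuclei of WT 3dpMI, and at 759 (693 to 829.6) and 269 (249 to 289) in Q150X, where the ratio was 0.354 (0.315 to 0.397). Slc27a1 stood at 234 and 101 in WT and at 234 and 94.3 in Q150X, ratios of 0.433 (0.381 to 0.491) and 0.402 (0.328 to 0.495). Ucp3 was 0.355 (0.256 to 0.484) for WT and 0.286 (0.163 to 0.507) for Q150X, on 30 and 25 UMIs in the latter. Acacb was 0.56 (0.522 to 0.601) and 0.443 (0.392 to 0.501). For Lpl, Slc27a1, Ucp3 and Acacb the 2 genotypes were closer within a kind of nucleus than the 2 kinds were within a genotype. These genes were picked for the lowest ratios between the kinds in Q150X. That choice favours such an order, so nothing is concluded from it. The order did not hold for Pdk4, at 79.2 CPM in WT and 127 in Q150X stress-low nuclei at 3dpMI. In stress-high nuclei Pdk4 stood at 112 and 108. No such comparison is given for the other members.

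Of the beta-oxidation genes, Eci1 was 0.378 (0.282 to 0.501) and Hadh 0.422 (0.342 to 0.517) in WT, and 0.461 (0.292 to 0.741) and 0.36 (0.243 to 0.537) in Q150X. Cd36 stood at 1276 and 951 CPM in WT, and at 1554 and 944 in Q150X. Acadl was nearly level, at 0.921 (0.823 to 1.03) for WT and 0.824 (0.675 to 1.01) for Q150X. Pdk4 and Acads were the 2 members that stood higher in stress-high nuclei of WT. Pdk4 was at 112 (101 to 124) against 79.2 (71.1 to 87.8), a ratio of 1.41 (1.22 to 1.64), while in Q150X the ratio was 0.851 (0.664 to 1.1), and Acads had 1.14 (0.653 to 1.98) in WT. Summed over the 12 beta-oxidation genes, the stress-low nuclei of WT 3dpMI stood at 1242 (1209.8 to 1275) and of Q150X 3dpMI at 1121 (1041 to 1206) CPM, both above the stress-low nuclei at homeostasis, at 669 (640.2 to 698) and 948 (913 to 984). The stress-high nuclei stood at 812 (781 to 843) and 718 (687 to 751). Genes as a whole also stood higher in stress-low nuclei at 3dpMI than at homeostasis. From the shortest to the longest class of length, their median log2 ratios were 0.66, 0.37 and 0.20 in WT. In Q150X those medians were 0.32, 0.15 and 0.0072.

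**Figure D3:**
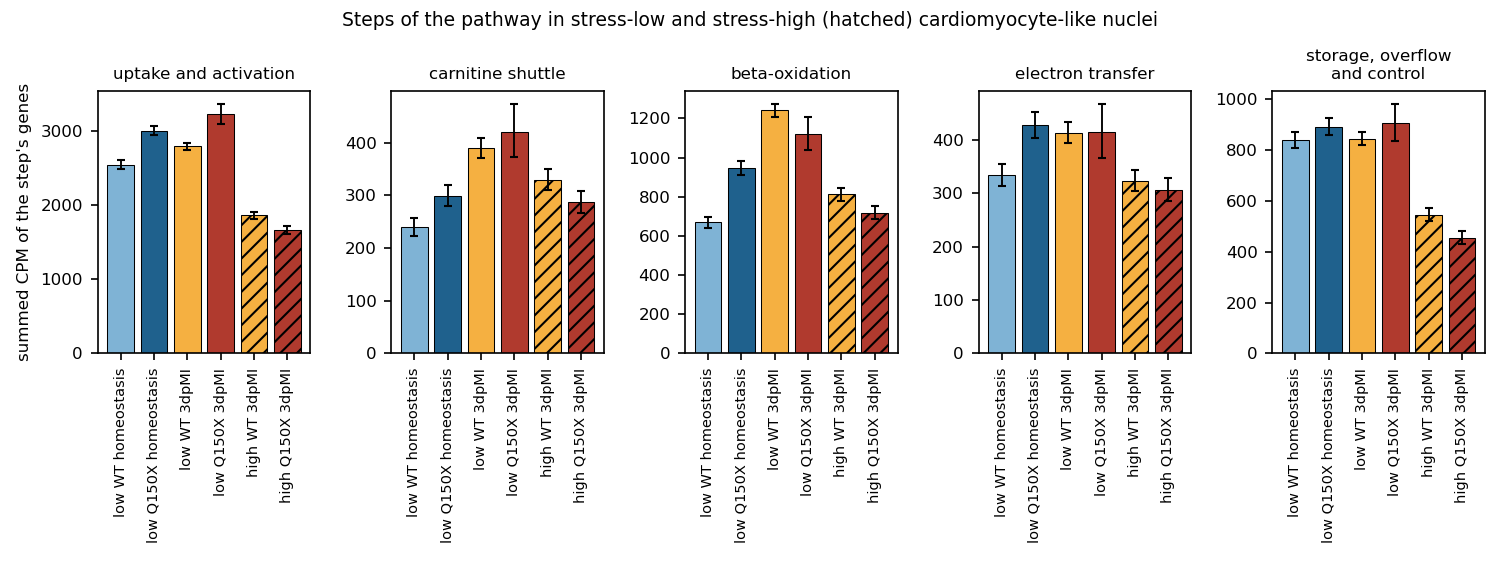
Summed CPM of the genes of each step in stress-low (plain) and stress-high (hatched) cardiomyocyte-like nuclei, with exact Poisson 95% intervals; stress-high nuclei at homeostasis (14 and 12) are left out. In every panel both hatched bars of 3dpMI stand below the plain bars of the same library.

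Within each kind of nucleus the members' median genotype difference at 3dpMI was nearer to 0 than over all cardiomyocyte-like nuclei, by an amount that depended on the clustering. Among stress-low nuclei, 788 in WT and 121 in Q150X, 16 members were higher and 16 lower in Q150X, where 50.6% of all genes were higher and 49.4% lower, with a median log2 ratio of -0.00052 against 0.0092 over all genes. Among stress-high nuclei, 360 and 271, 26 of 31 were lower, beside 42.4% of all genes, with a median of -0.20 against 0.074, and 10 had an interval below 1, beside 8.61%. That median was 0.041 with the libraries clustered separately and -0.45 with genes left unscaled, where the stress-high nuclei are nearly all of them. With both kinds weighted equally in each library the median over all cardiomyocyte-like nuclei was -0.073, against -0.46 as sampled. The stress genes themselves were not level between the genotypes within a kind. At 3dpMI they summed to 7887 CPM in WT and 10620 in Q150X stress-high nuclei, and to 1795 and 2023 in stress-low ones. The part of this in the genotype ratios was not tested. The result in stress-low nuclei depended on which nuclei were counted as such. With nuclei limited to 5% mitochondrial UMIs, a further cluster held 391 WT and 368 Q150X nuclei at 3dpMI. Its stress genes, at 4122 CPM, lay just under the line of 4283, so it counted as stress-low. The median in stress-low nuclei was then -0.38. More nuclei were named cardiomyocyte-like in that setting, with 1113 stress-low and 300 stress-high in WT and 480 and 257 in Q150X. The change was thus not only a shift of the same nuclei across the line.

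Within stress-low nuclei 5 members, Cd36, Fabp3, Lpl, Pdk4 and Mlycd, had intervals above 1, beside 6.52% of all genes. Cd36 stood at 1554 (1459 to 1653) against 1276 (1243 to 1309) CPM, a ratio of 1.22 (1.14 to 1.3). Fabp3 had 1.25 (1.06 to 1.47) and Lpl 1.16 (1.05 to 1.28). Pdk4 was 1.61 (1.25 to 2.05) and Mlycd 1.67 (1.12 to 2.43). With at most 5% mitochondrial UMIs the log2 ratios of Cd36, Fabp3 and Pdk4 were -0.24, -0.0093 and -0.14. Lower ones were Acadm, at 0.804 (0.665 to 0.966), and Echs1, at 0.52 (0.244 to 0.986) on 10 UMIs in Q150X, with Hadhb at 0.852 (0.699 to 1.03) and Hadh at 0.759 (0.545 to 1.03) holding 1. Within stress-high nuclei Lpl was 0.74 (0.673 to 0.812), Acsl1 0.762 (0.689 to 0.842), Cpt1a 0.726 (0.606 to 0.866) and Acacb 0.79 (0.719 to 0.867), while Cd36 stood at 944 and 951 CPM. The 5 members that were higher there, Acadm, Acadvl, Crat, Cpt2 and Eci1, all had intervals that hold 1. With the libraries clustered separately the log2 ratios of Lpl and Acacb in stress-high nuclei were 0.017 and 0.035. There all 416 Q150X nuclei were set against the 504 stress-high ones of WT.

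**Figure D4:**
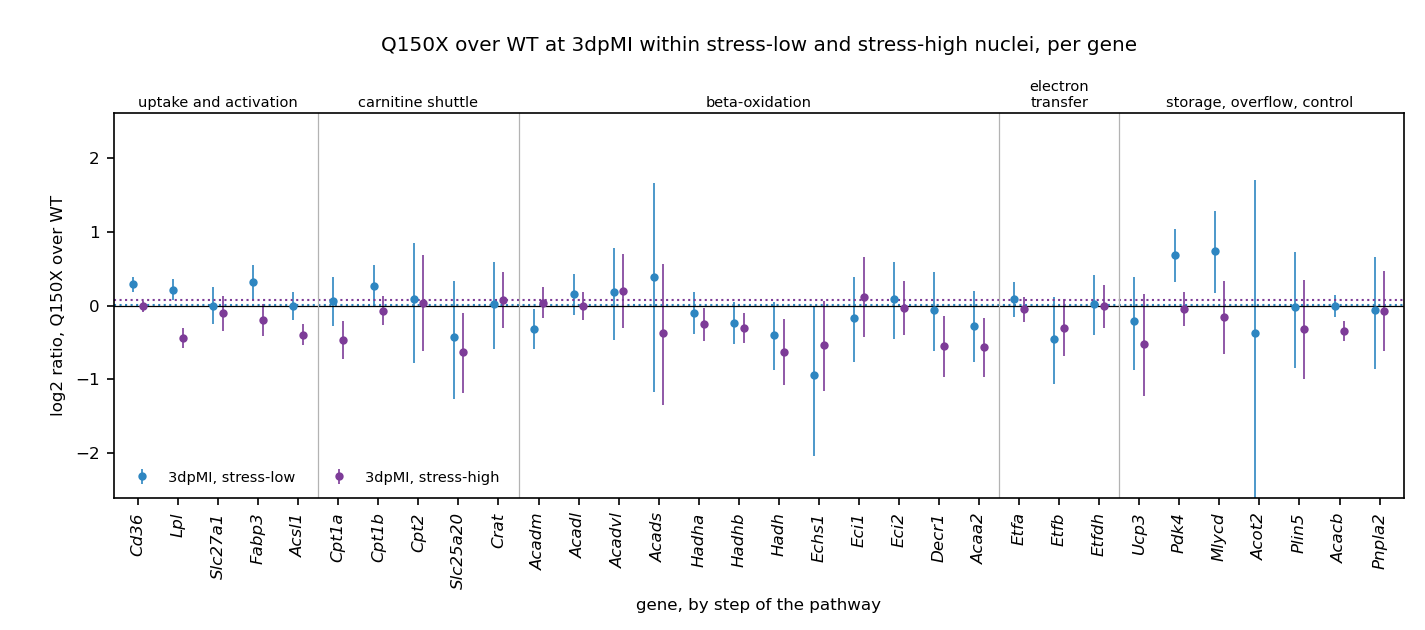
log2 ratio of Q150X over WT at 3dpMI for each gene within stress-low (blue) and stress-high (purple) cardiomyocyte-like nuclei, with 95% counting intervals and dotted lines at the median of all genes. Blue points are spread evenly about 0 (16 above, 16 below), purple points lie mostly below (26 of 31), and the bound of Acot2 runs off the axis.

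From homeostasis to 3dpMI, most members were higher in stress-low nuclei of WT, with 29 of 32 genes higher beside 75.8% of all genes and a median of 0.61 against 0.38, or 0.034 after subtracting the median of genes of like length. In Q150X 20 of 31 were higher beside 58.9%, with a median of 0.18 against 0.12, and -0.33 with at most 5% mitochondrial UMIs. Cpt1a was the highest in both, at 3.01 (2.5 to 3.65) for WT and 3.26 (2.46 to 4.31) for Q150X, and Pdk4 the lowest, at 0.611 (0.528 to 0.706) and 0.643 (0.504 to 0.812). Other values differed between the kinds of nuclei. Median depth was 5431 UMIs in stress-low and 8094 in stress-high nuclei of WT 3dpMI, and 5569 and 9293 in Q150X. The cardiomyocyte markers summed to 75844 and 69591 CPM in WT and to 77399 and 64409 in Q150X, with none of 15 at 0. The 17 macrophage markers summed to 268 and 229 in WT and to 453 and 338 in Q150X, the 12 pericyte markers to 3047 and 1274 and to 2352 and 802, and the endothelial markers to 249 and 230.5, and 161 and 126, with Erg at 0 in Q150X stress-low nuclei. Of the pericyte markers Kcnj8 was at 0 in both kinds of Q150X nuclei, and Vtn in stress-high ones. The part of depth and of RNA from other cells in these differences was not tested.

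Over the 6 groups of cardiomyocyte-like nuclei with at least 100 nuclei, 3 genes outside the list followed the median of the 30 members with at least 200 UMIs most closely. They were Tcn2, a carrier of vitamin B12, Nod1, an innate immune receptor, and Fundc1, a mitochondrial outer membrane protein of mitophagy, with mean distances of 0.051, 0.056 and 0.063 on the log2 scale after centring, out of 6467 genes compared. The 6 groups share 4 libraries, and the likeness is a description only.

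In vascular endothelial-like nuclei Cd36 and Lpl, the genes by which capillaries take up and release fatty acids, were the best counted members. Cd36 stood at 3847 CPM (3677 to 4023) for WT and 2371 (2217 to 2532) for Q150X without infarction, then 1441 (1402 to 1481) and 1055 (1018 to 1094) with it. Its ratios of Q150X over WT were 0.616 (0.568 to 0.668) and 0.732 (0.70 to 0.766), and 3dpMI over homeostasis was 0.375 (0.355 to 0.395) for WT and 0.445 (0.413 to 0.48) for Q150X, so WT homeostasis was the high library and Q150X 3dpMI the low one with no overlap of intervals. Lpl stood at 581 CPM (516 to 652) for WT and 559 (486 to 640.5) for Q150X without infarction, then 309.7 (292 to 328) and 147 (133 to 161) with it. Its homeostasis ratio of 0.962 (0.802 to 1.15) held 1, and it was lower in Q150X at 3dpMI, at 0.474 (0.422 to 0.53), with 0.533 (0.468 to 0.608) for WT and 0.262 (0.222 to 0.311) for Q150X for 3dpMI over homeostasis.

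The endothelial clusters took different shares in the libraries. Cluster 1 held 84.6%, 65.5%, 55.4% and 32.9% of the endothelial nuclei in the usual order of libraries, and cluster 7 held 10.7%, 28.6%, 34.3% and 56.6%. Within cluster 1 Cd36 stood at 4016 (3831 to 4207) and 2709 (2508 to 2922) CPM at homeostasis, and at 2170.0 (2101 to 2240.2) and 2087 (1982 to 2197) at 3dpMI, where the intervals overlapped. Within cluster 7 it stood at 697 (654 to 743) and 686 (648 to 726) at 3dpMI, which overlapped too. Lpl differed by genotype at 3dpMI within both clusters. It stood at 458 (427 to 491) in WT and 350.0 (308 to 397) in Q150X within cluster 1, and at 168 (147 to 191) and 70.0 (58.2 to 83.5) within cluster 7.

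At 3dpMI 25 of 29 measured members were lower in Q150X endothelial-like nuclei, beside 39% of all genes, with a median log2 ratio of -0.32 against 0.093. Among members with at least 50 UMIs the lowest besides Lpl, by the bound nearest to 1, were Fabp3 at 0.388 (0.274 to 0.541), Acaa2 at 0.358 (0.229 to 0.545) and Cpt1b at 0.379 (0.193 to 0.70). Eci2 at 1.19 (0.869 to 1.62) and Eci1 at 1.24 (0.771 to 1.99) were the highest, and both held 1. At homeostasis 15 of the 32 members reached 20 UMIs. Of these 11 were higher in Q150X, beside 53.6% of all genes, with a median of 0.42 against 0.035, but Cd36 and Lpl, the only 2 with at least 100 UMIs, were lower and had a median of -0.38. Among those with at least 50 UMIs Acadm was the highest, at 2.6 (1.44 to 4.89) on 18 and 35 UMIs, and Cpt1a was 0.79 (0.45 to 1.36). The 15 cardiomyocyte markers in these nuclei summed to 3350 and 10346 CPM at homeostasis and to 5264 and 1148 at 3dpMI, with none at 0, so cardiomyocyte RNA in these nuclei was higher in Q150X at homeostasis and in WT at 3dpMI, the same order as most members, and its part in their ratios was not tested. For Acadm at homeostasis the level expected from free cardiomyocyte RNA was 3.85 CPM for WT and 18.3 for Q150X, and the counted level 36.0 and 93.7. For Cpt1b at 3dpMI the expected level was 10.7 CPM for WT and 2.49 for Q150X, and the counted level 13.03 and 4.94. By the rule for presence given below, Fabp3 and Acaa2 were present in these nuclei and Cpt1b was not.

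For 3dpMI over homeostasis 18 of 29 members were higher in WT endothelial-like nuclei, beside 68.3% of all genes, with a median of 0.12 against 0.32, which turned to -0.20 when centred on all genes and relative to gene length. In Q150X 22 of 28 were lower, beside 34.4%, with a median of -0.96 against 0.30. Fabp3 was 2.38 (1.22 to 5.29) in WT, on 9 UMIs at homeostasis, and 0.172 (0.109 to 0.273) in Q150X. Hadhb was 3.18 (1.64 to 7.05) and 0.366 (0.248 to 0.552), with 9 and 36 UMIs at homeostasis. Crat and Acadvl both had 2.74 (1.03 to 10.3) in WT, on 4 UMIs of each gene at homeostasis. In Q150X Cpt1a at 1.16 (0.754 to 1.88) and Eci2 at 1.37 (0.662 to 3.27) were the highest and held 1. Of the further pathway genes, Fabp4 and Pparg, a fatty acid carrier of capillaries and its regulator, were lower in the same comparisons as Cd36. Fabp4 was 0.516 (0.447 to 0.594) and Pparg 0.678 (0.588 to 0.781) for Q150X over WT at homeostasis, and in WT they were 0.40 (0.367 to 0.436) and 0.364 (0.331 to 0.401) for 3dpMI over homeostasis.

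In classes other than cardiomyocytes a member was counted as present where it reached 50 UMIs and 3 times the CPM expected from free cardiomyocyte RNA in a library. By that rule 27 of the 32 members were present in macrophage- or monocyte-like nuclei, beside 70.5% of the 13796 genes with at least 20 UMIs in cardiomyocyte-like nuclei. In fibroblast-like nuclei 25 were present, beside 78.8%, and in vascular endothelial-like nuclei 22, beside 58.4%. Pericyte-like nuclei had 9, beside 36.8%, dendritic-like nuclei 8, beside 30.9%, and endocardial-like nuclei 1, Cd36, beside 14.7%. The minimum of 50 UMIs is reached more easily in a class with more UMIs, so the order of the classes is not read. Macrophage- or monocyte-like nuclei held Cpt1a at 148 (136 to 161) in WT and 133 (124 to 141) CPM in Q150X at 3dpMI, with 4.74 and 1.32 expected from free RNA. They also held Slc27a1 at 97.3 (87.4 to 108) and 103 (95.6 to 110.4), and Acsl1 at 76.5 (67.8 to 86.1) and 67.6 (61.8 to 73.9). Only 73 and 343 such nuclei were present at homeostasis, so levels there rest on few UMIs. Cd36 was at 396 and 326 in them at 3dpMI.

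Fibroblast-like nuclei held Cpt1a at nearly the same level in all 4 libraries, at 80.4, 84.6, 86.1 and 90.5 CPM. Their Lpl was lower at 3dpMI, at 156 (135 to 178) for WT and 214 (199 to 231) for Q150X at homeostasis against 71.6 (65.6 to 78.0) and 40.8 (37.0 to 44.9) at 3dpMI. Cpt1b, the muscle form, was not among the members present there. Etfa stood at 114 and 119 at homeostasis and 82.5 and 77.2 at 3dpMI. In pericyte-like nuclei Cd36 stood at 1204 (1066 to 1356) for WT and 334 (293 to 379.9) for Q150X at homeostasis. The endothelial markers summed there to 5098 and 1994 CPM, with none of 15 at 0, so endothelial RNA differed in the same direction and its part was not tested. Endocardial-like nuclei held Cd36 at 517 and 286 at homeostasis and at 185 and 142 at 3dpMI. Dendritic-like nuclei, with 160 and 308 at 3dpMI, held Cd36 at 435 and 322 and Cpt1a at 87.1 and 113 there.

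**Figure D5:**
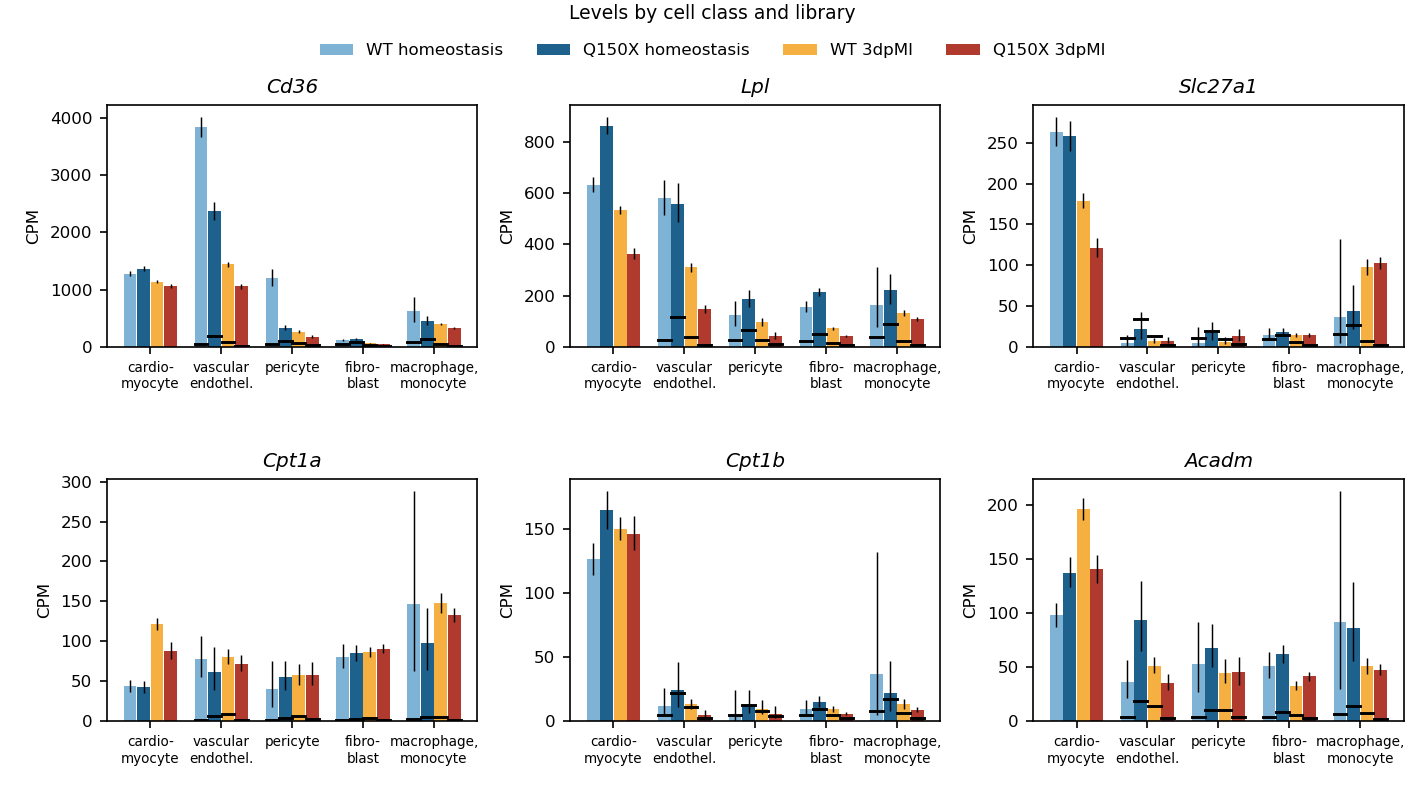
Level of 6 members by cell class and library, in CPM with exact Poisson 95% intervals, and black lines at the CPM that free cardiomyocyte RNA alone would bring to the other classes. Cd36 was highest in vascular endothelial-like nuclei at 3847 CPM in WT homeostasis, Cpt1b was highest in cardiomyocyte-like nuclei in each library, and Cpt1a was counted in every class shown.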

How the data were processed

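Single nuclei of 4 libraries, 1 for each genotype and time, were deposited as raw UMI counts per gene and nucleus, which the authors made with Cell Ranger (version 7.1.0 in the file headers). The submitters' processing notes name GRCm39 and Scanpy. No label or header says whether introns and strand were used in counting. Libraries held 5875965 to 32657625 UMIs. With 1 library in a group, samples labelled as one group have no replicate and no test was run.

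Nuclei with at least 500 UMIs, at least 300 genes and at most 10% mitochondrial UMIs were kept. Doublets were removed with Scrublet in Scanpy 1.11.5, which marked 182, 831 and 602 nuclei in WT homeostasis, WT 3dpMI and Q150X 3dpMI. In Q150X homeostasis its threshold marked 0.0153%, so the 343 nuclei with the highest scores were removed there. The 4 libraries were clustered together without the 32 members (2000 variable genes, 30 components, 15 neighbours, Leiden resolution 1 in leidenalg 0.10.2). Genes were scaled before the components, which was chosen after an unscaled run had put nearly all 3dpMI cardiomyocytes in 1 cluster. Clusters were named from marker lists with at least 3 markers, so class names are rebuilt here.

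UMIs were summed over a class and library and given as CPM with exact Poisson 95% intervals, and ratios with exact conditional binomial intervals (scipy 1.17.1), checked on simulated counts. A gene entered medians and counts where the compared libraries together held at least 20 of its UMIs. In each comparison the 4 members at either end, ranked by the bound nearest to 1 among those with at least 50 UMIs, were named, and up to 2 of each further list. The level expected from free RNA is the cardiomyocyte level of a gene scaled by the cardiomyocyte markers in the other class. Gene length came from GENCODE on GRCm38 by gene ID. The members and all lists were chosen with earlier results of these data known. The level of 1 pericyte marker is not reported here.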

Additional observations from a re-analysis of the deposited data

Results flagged for a closer look

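In cardiomyocyte-like nuclei 12 members had an interval above 1 for Q150X over WT at homeostasis and below 1 at 3dpMI, of 30 with at least 50 UMIs in both comparisons, beside 5.37% of all 7408 such genes. With 1 library in each group the difference between the 2 times was not tested for any of them. The log2 ratio at 3dpMI minus that at homeostasis was -0.195 for Cd36, which carries fatty acids into the cell, -1.0 for Lpl, -0.969 for Fabp3 and -0.818 for Acsl1. For the oxidation genes it was -0.972 for Acadm, -1.10 for Hadha, -1.03 for Hadhb, -1.47 for Hadh, -1.90 for Echs1 and -1.67 for Decr1. For the flavoprotein subunits it was -0.440 for Etfa and -1.01 for Etfb.

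Read along the other axis, Fabp3, Acsl1, Hadha, Hadhb, Echs1 and Decr1 stood higher at 3dpMI than at homeostasis in WT and lower in Q150X, both with intervals clear of 1. These are 6 of 30 members, beside 2.7% of all 8322 genes with at least 50 UMIs in both. The log2 difference between the genotypes is the same number by construction, at -0.969, -0.818, -1.10, -1.03, -1.90 and -1.67, and the difference was not tested.

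In vascular endothelial-like nuclei Acadm was higher in Q150X at homeostasis and lower at 3dpMI, a log2 difference of -1.91. Fabp3 and Hadhb were higher after infarction in WT and lower in Q150X, with log2 differences of -3.79 and -3.12 that rest on 9 UMIs of each gene in WT homeostasis. Lpl at 3dpMI was higher in Q150X among stress-low and lower among stress-high cardiomyocyte-like nuclei, a log2 difference of -0.650. It depended on the clustering: with the libraries clustered separately Lpl was nearly level between the genotypes in stress-high nuclei. All 416 Q150X nuclei counted as stress-high then, while WT had 504 stress-high and 690 stress-low, so the 2 genotypes were not split alike. The stress-low comparison could not be run in that setting. None of these differences was tested.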

How the results depend on the processing

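No paired analysis was possible because each group has 1 library and no replicate number. Of the 185 medians over members under alternatives, 178 stayed within the interval of the reported value and 7 went beyond it. The sign changed in 11, of which 8 were within the interval and 3 beyond it. The intervals of the medians are not printed here, and with 1 library in a group they do not measure the spread between hearts. A median within its interval could still move far. For Q150X over WT in stress-high nuclei all 13 alternatives counted as within, while the median of -0.20 ran from -0.45 to 0.041. For single genes 1005 of 1181 values stayed within, 176 went beyond, and 57 had the other sign. The WT infarction median of 0.54 was -0.076 relative to the gene length trend. Within cluster 0 Acacb was 0.088 in that comparison, and within cluster 12 Hadh was -0.12, Pdk4 0.062 and Lpl 0.45. The Q150X over WT median at 3dpMI was -0.20 within cluster 15, where Pdk4 was -0.045, and -0.073 with both kinds of nuclei weighted equally. At homeostasis the endothelial median was -0.38 for members with at least 100 UMIs and -0.052 within cluster 1. In WT stress-low nuclei the infarction median was 0.23 when centred on all genes and 0.034 relative to gene length. With at most 5% mitochondrial UMIs the infarction median in Q150X stress-low nuclei was -0.33, that of Q150X over WT in stress-low nuclei was -0.38, and Pdk4, Cd36 and Fabp3 were -0.14, -0.24 and -0.0093 there. With libraries clustered separately Lpl and Acacb were 0.017 and 0.035 in stress-high nuclei, and the median was 0.041. Those values set all 416 Q150X nuclei against the 504 stress-high ones of WT. With genes unscaled the median in stress-high nuclei was -0.45. The causes were not tested. The share of stress-high nuclei at 3dpMI ran from 21.2% to 92.5% in WT and from 34.9% to 100% in Q150X over the settings tried, and was higher in Q150X in each. Which nuclei were named cardiomyocyte-like also differed between settings, so the shares are not of the same nuclei. Comparisons that need stress-low nuclei of Q150X 3dpMI were not run with libraries clustered separately (0 nuclei) or genes unscaled (8 nuclei). The gene length, equal weight, within-cluster endothelial, unnamed-cluster and unscaled settings, and both stress-low infarction comparisons, were chosen after seeing the data. Low counts limit Acot2, Acads, Cpt2 and most members in endothelium at homeostasis.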
